A study of Arabidopsis thaliana with 4 samples.

Results

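The CHH cytosines that border the centromeric satellite arrays of Arabidopsis thaliana were sorted by the 2 bases that follow each of them, and CAA and CTA were set against the other 7 trinucleotides in each genotype. H stands for A, C or T. The members were all CHH cytosines within 2 Mb outside the arrays that had at least 4 calls in all 4 libraries, a call being 1 read of that cytosine as methylated or unmethylated. The array spans left out ran from 14.84 to 17.13 Mb on chromosome 1, 3.83 to 6.04 Mb on chromosome 2, 13.6 to 15.73 Mb on chromosome 3, 4.2 to 6.98 Mb on chromosome 4 and 11.8 to 14.55 Mb on chromosome 5. The rule kept 2586141 cytosines, 47.7% of the 5421756 CHH cytosines listed in these flanks and 7.33% of the 35259710 listed in the nuclear genome. CAA and CTA supplied 630787 of them, or 24.4%, and the other trinucleotides 1955354.

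The study made 1 enzymatic methyl-seq library each from leaves of the quadruple mutant (ccr4a ccr4b ddm1 rdr2), of the double mutants ddm1 rdr2 and ccr4a ccr4b, and of wild type (WT). In this assay enzymes convert unmethylated cytosines and spare methylated ones, so that a C left after sequencing counts as a methylated call. All plants were 6 weeks old, of the Columbia (Col-0) accession and grown on soil in long days, and each library started from 100 ng of DNA and was amplified with 13 PCR cycles. The labels name no alleles and do not say how many plants a library holds. The libraries were not checked against the mutated genes, whose positions on this build are not used here.

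Plants methylate cytosines in all sequence contexts, and CHH methylation has to be laid down anew after each replication because the opposite strand carries no matching cytosine. In Arabidopsis heterochromatin this is largely the work of the chromomethylase CMT2, which is known to prefer CAA and CTA and is held at chromatin with a methylated histone mark, while the methyltransferase DRM2 is guided by small RNAs and is less selective among CHH trinucleotides. RDR2 copies RNA into the double-stranded precursors of those small RNAs, DDM1 remodels nucleosomes so that methyltransferases reach compact heterochromatin, and CCR4A and CCR4B are deadenylase subunits that shorten the poly(A) tails of RNA.

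Short stretches of sequence show how the trinucleotides lie among each other and how unevenly neighbouring cytosines were methylated. They come from the 10 kb windows that stood out most, which are described below, and each base was read from the trinucleotides listed for both strands in the deposited files, on a build that the file names call ColCEN. Capitals mark the CAA and CTA trinucleotides whose cytosine had at least 10 calls in all libraries, written as TTG and TAG where the cytosine is on the minus strand. Those with fewer calls, such as the plus-strand CAA of the first chromosome 2 stretch, stay in lower case and enter no value.
Chr1:13158581-13158615, window highest in ddm1 rdr2: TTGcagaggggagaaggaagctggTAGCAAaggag
Chr2:2056774-2056808, window with the largest gain in the quadruple mutant over ddm1 rdr2: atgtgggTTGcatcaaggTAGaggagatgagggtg
Chr3:15734927-15734958, window with the largest loss in the quadruple mutant against ddm1 rdr2: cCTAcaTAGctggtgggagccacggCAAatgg
Chr2:7826169-7826231, window with the largest gain in ccr4a ccr4b over WT: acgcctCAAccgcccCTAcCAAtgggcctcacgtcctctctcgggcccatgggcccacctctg

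In the chromosome 1 stretch the minus-strand CAA at base 3 was methylated in 50% of 52 calls in the quadruple mutant, 60.3% of 63 calls in ddm1 rdr2, 63.0% of 73 calls in ccr4a ccr4b and 64.0% of 50 calls in WT. The plus-strand CAA at base 28 of the same stretch had 2.04%, 10.6%, 14.3% and 11.8% in that order, and a minus-strand CTC at base 13 had 36.7%, 34.5%, 31.0% and 36.2%. This CTC was more often methylated than that CAA in every library, so the order of trinucleotides seen in the averages below did not hold for each pair of sites. In the chromosome 2 stretch at 2056774 the CTA at base 21 was methylated in 59.6% of 52 calls in the quadruple mutant and in 6.45% of 31 calls in ddm1 rdr2. In ccr4a ccr4b and WT the CAA and CTA in capitals in this stretch had 0 methylated calls of 68 and 107, which allows shares of up to 4.41% and 2.80%.

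Nuclear calls numbered 785451909 in the quadruple mutant, 745511802 in ddm1 rdr2, 574097022 in ccr4a ccr4b and 774313581 in WT, and a covered cytosine had a median of 16, 14, 10 and 14 calls. The rule kept unequal shares of the trinucleotides, between 38.2% of the listed CTA and 58.7% of the listed CCC cytosines, so the members lean towards GC-rich sequence. Methylated calls at CHH cytosines of the chloroplast, which carries no such methylation and so gives the background of incomplete conversion, made up 0.0570% to 0.118% across trinucleotides and libraries. No genotype has a replicate. The 95% intervals given here are Wilson intervals for levels, Newcombe intervals for differences and Katz intervals for ratios. They cover counting error only. The labels name no molecular identifiers, so that copies of 1 molecule made by PCR may count as separate calls, and no test between genotypes was possible.

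CAA and CTA were the most methylated CHH trinucleotides in every library. CAA reached 5.15% in the quadruple mutant, 6.19% in ddm1 rdr2, 25.5% in ccr4a ccr4b and 29.7% in WT, where the interval was 29.7% to 29.7%. CTA followed with 5.03%, 6.06%, 23.8% and 28.3%. No other trinucleotide came above 1.93% in the mutants that carry ddm1 and rdr2 or above 9.43% in the other 2 libraries, and CAA and CTA lay above all others in 10 of 10 flanks of each library. The order of CAA over CTA was less steady, since CAA was the higher one in 4 flanks in the quadruple mutant, 3 in ddm1 rdr2, 10 in ccr4a ccr4b and 7 in WT.

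**Figure D1:**
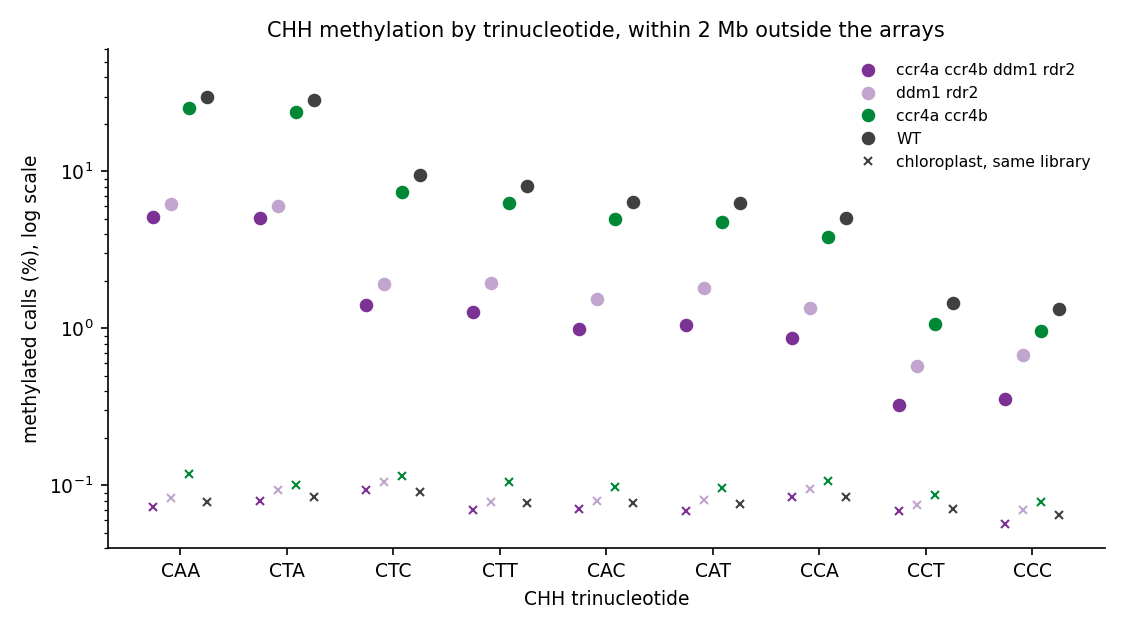
Methylated share of calls at the 9 CHH trinucleotides within 2 Mb outside the arrays, on a log scale, in the 4 libraries, with the chloroplast level of the same trinucleotide and library as crosses. CAA and CTA stand above the rest in each library, from 5.03% to 29.7%, and CCT and CCC lie lowest, from 0.327% to 1.46%.

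The remaining trinucleotides fell into a middle and a low group. CTC and CTT came next after CAA and CTA. CTC had 1.41% in the quadruple mutant, 1.92% in ddm1 rdr2, 7.41% in ccr4a ccr4b and 9.43% in WT, and CTT had 1.28%, 1.93%, 6.31% and 8.10%. CAC, CAT and CCA lay between 0.864% and 1.04% in the quadruple mutant, 1.34% and 1.80% in ddm1 rdr2, 3.82% and 4.95% in ccr4a ccr4b, and 5.03% and 6.41% in WT. The trinucleotides with a second cytosine followed by C or T were the lowest. CCT had 0.327%, 0.576%, 1.06% and 1.46% in the same order of libraries, and CCC 0.358%, 0.679%, 0.958% and 1.34%. CCC and CCT were the lowest pair in 10 of 10 flanks of each library, and even their values were several times the chloroplast level of the same library. Within 1 library the levels on the plus and minus strands differed by at most 0.539 points (percentage points), at CTA in ccr4a ccr4b.

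The trinucleotides also differed at single cytosines. Of the CAA cytosines read at least 10 times in each library, 7.49% were methylated in at least 20% of their calls in the quadruple mutant, 10.1% in ddm1 rdr2, 52.9% in ccr4a ccr4b and 67.2% in WT. For CCC the shares were 0.0874%, 0.339%, 1.13% and 0.578%, so on this measure ccr4a ccr4b lay above WT, as it did for CCT with 1.20% against 0.595% in WT. Yet 86.5% of the CCC cytosines in ccr4a ccr4b had no methylated call, against 73.5% in WT. The methylated CCC calls of ccr4a ccr4b thus lay on fewer cytosines. Of the CAA cytosines, too, 22.7% had no methylated call in ccr4a ccr4b and 8.80% in WT. The libraries also differed in depth, with 39.4 calls per CAA cytosine in ccr4a ccr4b and 45.7 in WT over all members. At CCC the depth ran the other way, with 59.0 calls per cytosine in ccr4a ccr4b and 57.0 in WT. The part of depth in these results was not tested.

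The base outside the trinucleotide went along with the level too. CTC followed by G was methylated in 0.972% of calls in ddm1 rdr2 and 5.04% in WT, while CTC followed by C had 2.41% in ddm1 rdr2 and 12.4% in WT. CTA preceded by G had 4.19% in ddm1 rdr2 and 22.0% in WT, against 6.30% and 30.1% when preceded by C. CAA varied less. When followed by C it had 6.67% in ddm1 rdr2 and 33.2% in WT, and when followed by G 5.65% and 28.3%. CTC thus spanned a wider relative range than CAA over the following base, in both libraries. Coverage varied with the following base as well, with 45.5 calls per CTC followed by C in ddm1 rdr2 and 51.1 per CTC followed by G.

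Taken as groups, CAA and CTA were methylated in 5.11% of calls in the quadruple mutant, 6.14% in ddm1 rdr2, 24.9% in ccr4a ccr4b and 29.2% in WT. The other trinucleotides had 0.957%, 1.47%, 4.47% and 5.87%. CAA and CTA thus exceeded the others by 4.15 points in the quadruple mutant (95% interval 4.14 to 4.16), 4.67 points in ddm1 rdr2 (4.66 to 4.68), 20.4 points in ccr4a ccr4b (20.4 to 20.4) and 23.3 points in WT (23.3 to 23.3). As a ratio, CAA and CTA stood 5.34 times as high as the others in the quadruple mutant (5.32 to 5.35), 4.18 times in ddm1 rdr2 (4.17 to 4.19), 5.57 times in ccr4a ccr4b (5.56 to 5.57) and 4.97 times in WT (4.97 to 4.98). CAA and CTA supplied 61.2%, 54.4%, 59.9% and 59.2% of all methylated CHH calls in these libraries, from 22.8%, 22.2%, 21.2% and 22.6% of the calls.

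The ratio was therefore higher in each library with ccr4a ccr4b than in its counterpart without, and that order held in 10 of 10 flanks for both pairs. It was lower in ddm1 rdr2 than in WT when all flanks were pooled, and in 7 of 10 flanks. By flank, it ran from 3.77 to 6.04 in the quadruple mutant, 2.96 to 5.21 in ddm1 rdr2, 4.89 to 6.34 in ccr4a ccr4b and 4.40 to 5.54 in WT. The left flank of chromosome 5 had the lowest ratio in the quadruple mutant, ddm1 rdr2, ccr4a ccr4b and WT alike.

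**Figure D2:**
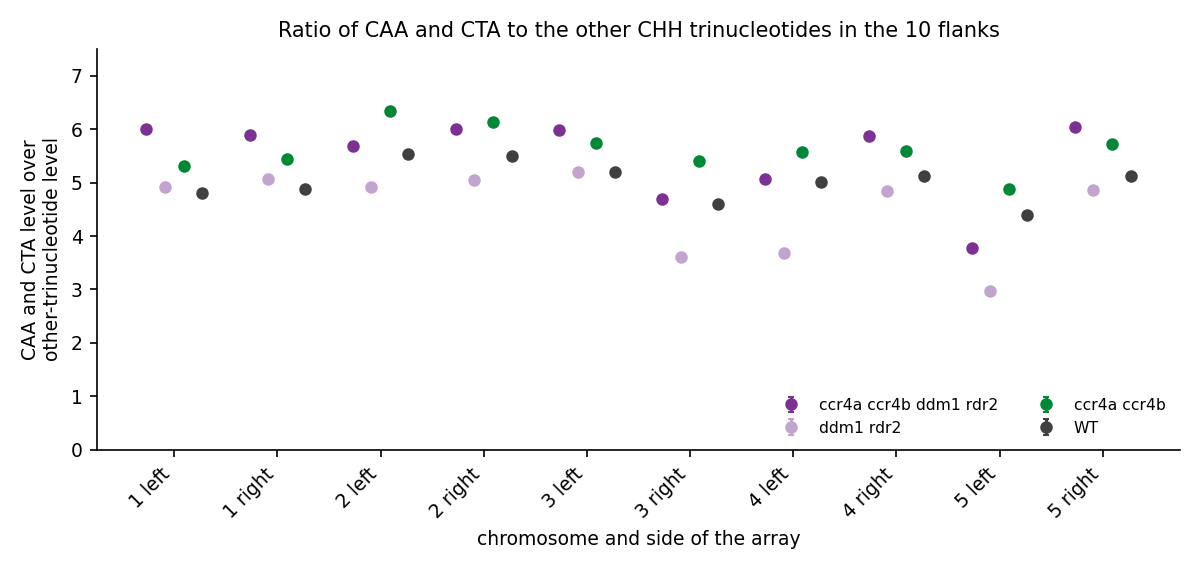
Level of CAA and CTA divided by the level of the other CHH trinucleotides in the 10 flanks of 2 Mb, left and right of the array on each chromosome, in the 4 libraries. Bars are 95% counting intervals and are mostly hidden by the points. The quadruple mutant lies above ddm1 rdr2, and ccr4a ccr4b above WT, in each flank, and chromosome 5 left is lowest.

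The comparison of ccr4a ccr4b with WT asks what loss of CCR4A and CCR4B does where heterochromatic methylation is otherwise in place. All 9 trinucleotides were lower in ccr4a ccr4b, and CAA and CTA kept the largest part of their level. CAA and CTA together differed by -4.31 points (-4.34 to -4.29) and stood at 85.2% of the WT level (85.2% to 85.3%). The level went with depth in both libraries: cytosines with 4 to 9 calls in the library itself had 18.4% in ccr4a ccr4b and 19.4% in WT, and those with 50 calls or more 25.9% and 30.4%. These classes hold different cytosines in each library, and the part of depth in the difference was not tested. The others differed by -1.40 points (-1.41 to -1.40) and stood at 76.1% (76.0% to 76.2%). By trinucleotide the relative level ran from 85.8% at CAA and 84.1% at CTA down to 72.6% at CCT and 71.6% at CCC.

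The gap between both groups was seen in most places. The relative level of the others was below that of CAA and CTA in 10 of 10 flanks, in 98 of 100 flank bins of 200 kb, and in 1380 of the 1759 windows of 10 kb in which it could be computed. With each cytosine weighted equally, CAA stood at 81.1% of WT and CTA at 80.8%, while CCC came next at 79.8% and CCT at 76.7%. CAT was then the lowest at 71.4%. The place of CCC and CCT in this order thus depended on the weighting, and that of CAA and CTA did not.

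**Figure D3:**
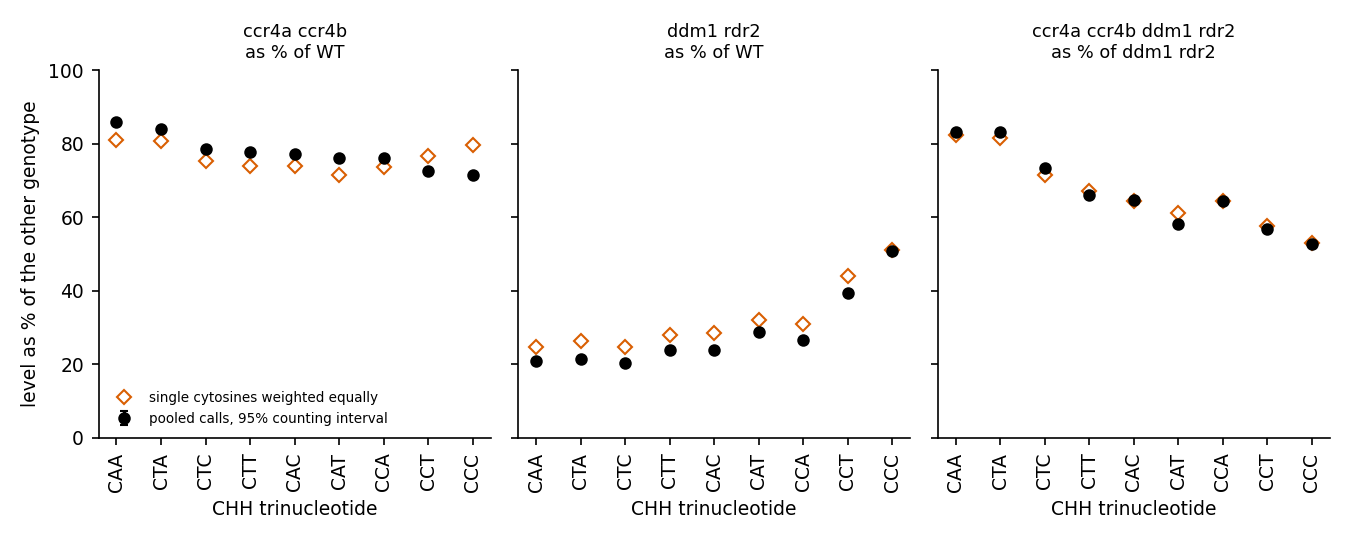
Level of each CHH trinucleotide in 1 library as a percentage of its level in another, for ccr4a ccr4b over WT, ddm1 rdr2 over WT and the quadruple mutant over ddm1 rdr2. Filled points are pooled calls with 95% counting intervals, which are smaller than the points, and open diamonds weight single cytosines equally. CAA and CTA kept the most in both ccr4a ccr4b comparisons, 83.1% to 85.8%, and CCC kept the most in ddm1 rdr2, 50.7%.

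Between ddm1 rdr2 and WT the levels at all 9 trinucleotides were much lower. From pooled calls the order of the relative levels was nearly the opposite of that in ccr4a ccr4b over WT. With single cytosines weighted equally, CCC with 79.8% and CCT with 76.7% were not the lowest in ccr4a ccr4b over WT. This opposition thus depended on the weighting. CAA and CTA differed by -23.1 points (-23.1 to -23.0) and stood at 21.03% of WT (20.99% to 21.06%), the others differed by -4.40 points (-4.41 to -4.40) and stood at 25.04% (24.99% to 25.08%). CCC kept 50.7% of its WT level and CCT 39.5%, while CTC with 20.3% kept about as little as CAA with 20.8%. Weighting single cytosines equally gave 51.2% for CCC, 44.0% for CCT, 24.7% for CTC and 24.7% for CAA.

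The pooled gap between both groups was uneven among places. The relative level of the others was below that of CAA and CTA in 3 of 10 flanks, 49 of 100 flank bins and 866 of 1759 windows, so the windows were close to evenly divided. With single cytosines weighted equally the count was 1 of 10 flanks, and the others stood at 29.3% of WT against 25.2% for CAA and CTA. In 4 flank bins, picked because the others had kept most there, the others stood at 48.8% to 66.1% of WT. Without these 4 bins the others stood at 20.1% of WT and CAA and CTA at 19.1%, a narrower gap that follows from how the bins were picked. The ratio of CAA and CTA to the others was then 5.98 in the quadruple mutant, 4.95 in ddm1 rdr2, 5.80 in ccr4a ccr4b and 5.21 in WT.

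The 4 bins lay on 3 chromosomes. The bin from 400 to 600 kb left of the chromosome 5 array, positions 11200001 to 11400000, had CAA and CTA levels of 6.13% in the quadruple mutant, 17.9% in ddm1 rdr2, 34.6% in ccr4a ccr4b and 42.2% in WT. The other trinucleotides had 3.19%, 8.60%, 10.1% and 13.0% there, so the ratio was only 1.92, 2.08, 3.43 and 3.24. Its depth of 67.9 to 101 calls per CHH cytosine was above that of most bins. The other bins were positions 15730001 to 15930000 and 16330001 to 16530000 on chromosome 3 and 3200001 to 3400000 on chromosome 4, with ratios of 3.05, 2.74 and 2.45 in ddm1 rdr2 and 3.81, 3.42 and 3.89 in WT. All 4 bins held more CHH methylation in WT than the median bin, whose CAA and CTA level was 30.3% and whose level at the others was 5.77%.

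The last comparison sets the quadruple mutant against ddm1 rdr2 and so asks what loss of CCR4A and CCR4B does once most of the methylation is gone. CAA and CTA differed by -1.03 points (-1.05 to -1.02) and stood at 83.2% of the ddm1 rdr2 level (83.0% to 83.4%). Without cytosines covered at over 3 times the median in any library the difference was -1.62 points. The median here is that of all covered nuclear cytosines, 14 calls in WT. This setting left out many members, since 217736 of the 630787 CAA and CTA cytosines had 50 calls or more in WT. Without the 4 bins described above, which were picked after their values were seen, CAA and CTA had 4.95% in the quadruple mutant and 5.46% in ddm1 rdr2, or 90.8%. The others differed by -0.513 points (-0.517 to -0.510) and stood at 65.1% (64.9% to 65.3%). CTC with 73.4% was nearest to CAA and CTA, CTT, CAC and CCA lay between 64.3% and 66.1%, and CAT with 58.2%, CCT with 56.8% and CCC with 52.7% were lowest. Equal weighting moved CAA to 82.5% and CCC to 53.1%.

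In that comparison too the others stood below CAA and CTA in most places, in 10 of 10 flanks, 96 of 100 flank bins and 1248 of 1755 windows. In flank bins the median relative level was 90.4% for CAA and CTA and 76.5% for the others, both above the pooled values. CAA and CTA themselves were lower in the quadruple mutant in 77 of the 100 flank bins, and the others in 91. The right flank of chromosome 3 and the left flank of chromosome 5 had the largest differences at CAA and CTA, -2.52 and -3.43 points, and the left flank of chromosome 3 the smallest, -0.186 points. The comparisons of ddm1 rdr2 with WT and of the quadruple mutant with ddm1 rdr2 share the ddm1 rdr2 library, and the 4 bins above were picked for a high level in it. In those bins CAA and CTA of the quadruple mutant stood at 34.2% to 57.8% of ddm1 rdr2.

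By distance from the array, in 10 bins of 200 kb with both sides of all chromosomes pooled, CAA and CTA lay above the others in each library throughout, and in each of the 100 flank bins. The level showed no even slope. From the nearest bin outward, CAA and CTA in WT had 28.5%, 22.9%, 31.3%, 31.0%, 30.0%, 31.9%, 32.1%, 28.5%, 30.6% and 28.2%. In ddm1 rdr2 the same bins had 6.58%, 3.77%, 7.55%, 7.12%, 6.96%, 6.47%, 6.62%, 6.11%, 6.33% and 4.64%. The dip from 200 to 400 kb occurred in all 4 libraries, down to 3.33% in the quadruple mutant and 18.1% in ccr4a ccr4b.

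The dip coincided in part with a block of mitochondria-like sequence on chromosome 2. From position 3360001 on, 37 windows in the left flank matched the listed mitochondrial sequence in the pattern of C, G and other bases over runs of 50. Whether their calls come from mitochondrial DNA was not tested. They took 8.15% to 11.3% of the CHH calls of all flanks, with 198 to 226 calls per CAA or CTA cytosine, and CAA and CTA had 0.388% in the quadruple mutant, 0.705% in ddm1 rdr2, 4.82% in ccr4a ccr4b and 6.10% in WT. Without them the bin from 200 to 400 kb had 5.18%, 5.92%, 25.8% and 31.1% in that order of libraries. The bin still lay below both neighbours, which then had 8.19% and 8.45% in ddm1 rdr2 and 32.7% and 33.3% in WT.

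**Figure D4:**
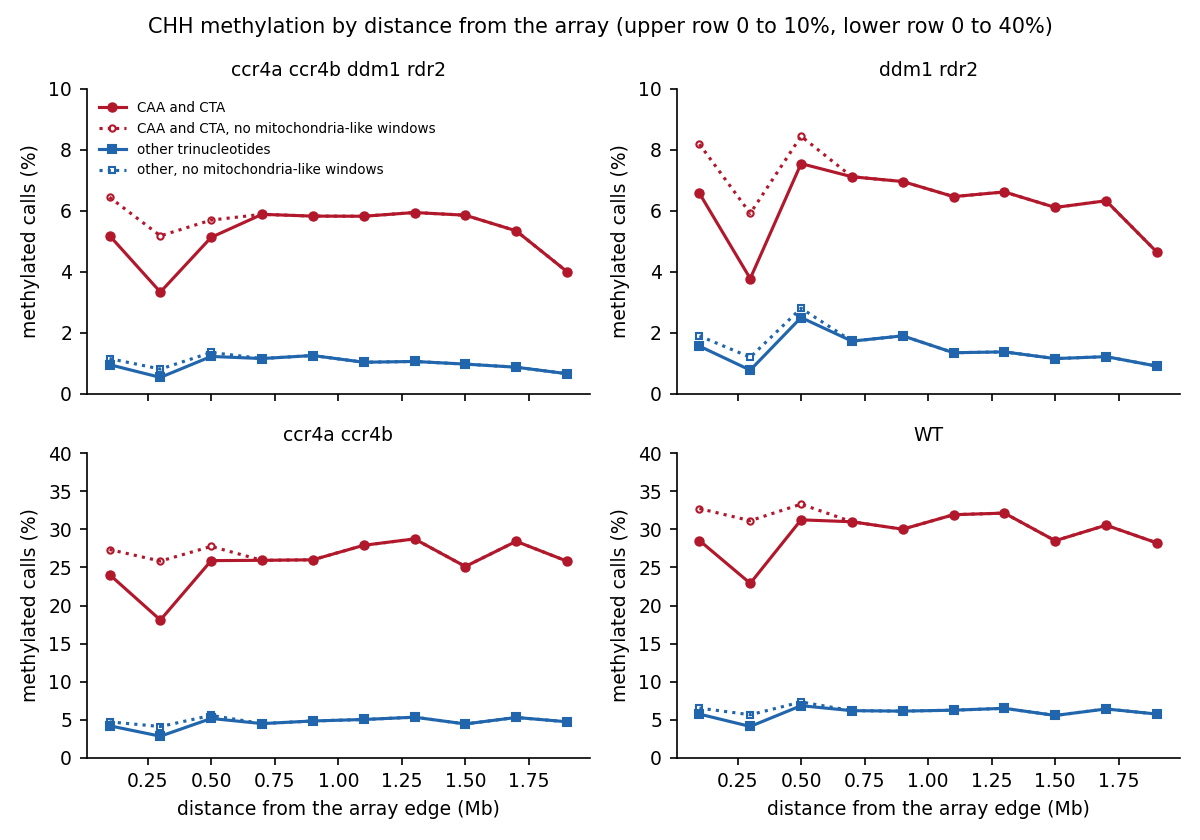
Methylated share of calls at CAA and CTA (red) and the other CHH trinucleotides (blue) by distance from the array edge, 1 panel per library, with the axis running to 10% for the libraries that carry ddm1 and rdr2 and to 40% for the others. Dotted lines leave out the mitochondria-like windows of chromosome 2, which raises CAA and CTA in WT from 200 to 400 kb to 31.1%, against 22.9% with them.

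The nearest bin minus the outermost bin was 1.18 points at CAA and CTA in the quadruple mutant, 1.93 points in ddm1 rdr2, -1.76 points in ccr4a ccr4b and 0.316 points in WT. Without the mitochondria-like windows these became 2.44, 3.55, 1.53 and 4.51 points, and with single cytosines weighted equally 2.72, 4.26, 4.73 and 6.53 points. The sign in ccr4a ccr4b turned under both settings, so no direction is stated for the pooled values of ccr4a ccr4b and WT. The nearest bin was the higher one in 8, 8, 6 and 8 of 10 flanks. The share of windows in which at least 10% of CAA and CTA calls were methylated was 91.3% in the nearest and 70.3% in the outermost bin in WT, and 24.9% and 10.5% in ddm1 rdr2.

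The ratio varied with distance as well. From pooled calls it was lowest from 400 to 600 kb in all 4 libraries, at 4.21 in the quadruple mutant, 3.02 in ddm1 rdr2, 5.01 in ccr4a ccr4b and 4.56 in WT, in the distance bin that holds the chromosome 5 stretch from 11200001. With single cytosines weighted equally the lowest value lay elsewhere in 3 libraries, from 600 to 800 kb in the quadruple mutant and from 1600 to 1800 kb in ccr4a ccr4b and WT, at 4.84, 4.90 and 4.54. In ddm1 rdr2 the pooled ratio was 5.16 in the outermost bin and 4.23 in the nearest, and in WT 4.91 and 4.97. From 1400 kb outward ddm1 rdr2 lay above WT, unlike in the bins nearer the array. The ratios were 5.33 and 5.12 from 1400 to 1600 kb, and 5.22 and 4.76 from 1600 to 1800 kb. Equal weighting kept that order. The relative level of CAA and CTA in ccr4a ccr4b over WT was 84.3% in the nearest and 91.5% in the outermost bin from pooled calls, but 79.8% and 81.9% with single cytosines weighted equally. In the quadruple mutant over ddm1 rdr2 it was 78.9% in the nearest and 86.2% in the outermost bin, and equal weighting kept that order. From pooled calls there was no even slope between them. The level was 88.3% from 200 to 400 kb, 67.9% from 400 to 600 kb and 95.8% from 1400 to 1600 kb. The nearest distance bin also holds the chromosome 3 bin from 15730001, which was among those picked above.

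In windows of 10 kb with at least 50 CAA or CTA cytosines and 1000 calls in each library, 1769 in all, the median CAA and CTA level was 3.93% in the quadruple mutant, 4.23% in ddm1 rdr2, 23.5% in ccr4a ccr4b and 28.7% in WT. CAA and CTA were lower in ccr4a ccr4b than in WT by at least 5 points in 824 windows, or 46.6%, against 12.3% of all nuclear windows, and higher by as much in 7, against 0.504% of all nuclear windows. Between ddm1 rdr2 and WT, 1538 windows or 86.9% were lower, against 25.3% of all nuclear windows, and 7 were higher, against 0.448%. Between the quadruple mutant and ddm1 rdr2, 131 windows or 7.41% were lower, against 2.4% of all nuclear windows, and 32 or 1.81% were higher, against 0.467%. Each of the counts of lower windows was thus a larger share than in the whole genome. Inside the array spans 68.9% of 148 windows were lower in ccr4a ccr4b than in WT. There 80.4% were lower in ddm1 rdr2 than in WT, and 33.1% in the quadruple mutant than in ddm1 rdr2. A window can fall by 5 points only from a level of at least 5%. In the chromosome arms the pooled CAA and CTA level was 6.22% in WT and 1.49% in ddm1 rdr2. The part of the starting level in these shares was not tested. At a difference of 10 points, 61 windows or 3.45% were lower in ccr4a ccr4b than in WT, against 1.11% of all nuclear windows, and 59 or 3.34% in the quadruple mutant than in ddm1 rdr2, against 0.84%. The median window difference was -4.78 points for ccr4a ccr4b minus WT, -22.0 points for ddm1 rdr2 minus WT and -0.282 points for the quadruple mutant minus ddm1 rdr2.

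**Figure D5:**
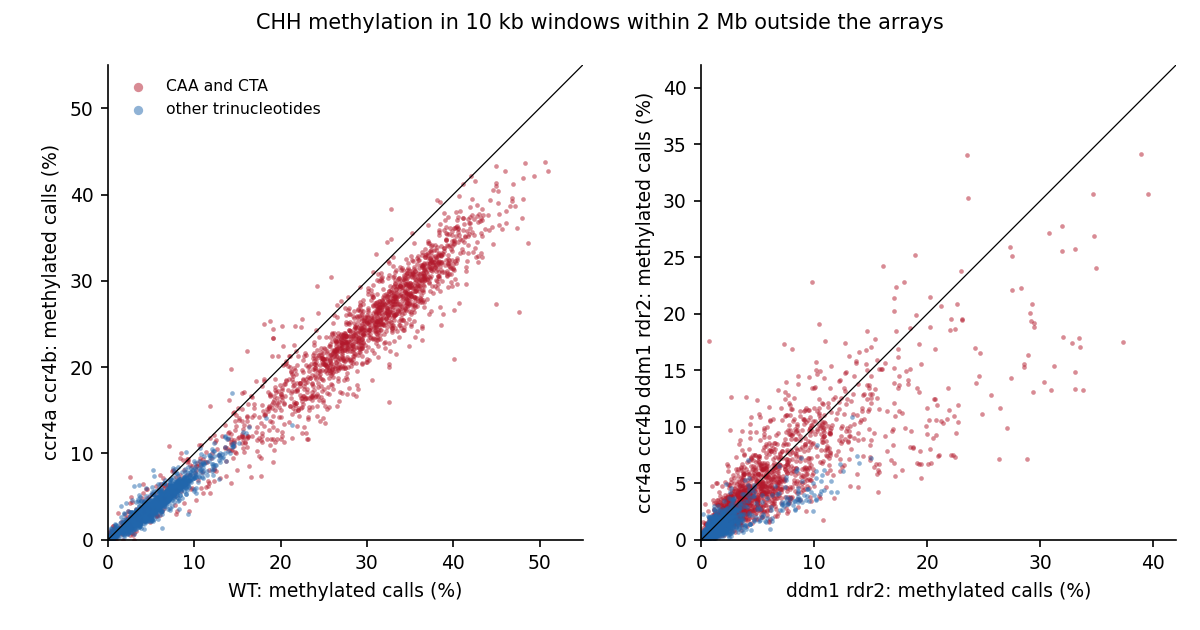
Methylated share of calls in the 1769 windows of 10 kb, at CAA and CTA (red) and the other CHH trinucleotides (blue), for ccr4a ccr4b against WT (left) and the quadruple mutant against ddm1 rdr2 (right). The line marks equal levels. On the left 92.7% of the windows lie below it at CAA and CTA, and on the right 61.9%.

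The 3 windows with the highest CAA and CTA level in ddm1 rdr2 differed in the other libraries. Chr1:13150001-13160000 had 30.6% in the quadruple mutant, 39.5% in ddm1 rdr2, 37.2% in ccr4a ccr4b and 43.2% in WT, so every library held much of its methylation. Chr5:10940001-10950000 had 34.1% in the quadruple mutant, 38.9% in ddm1 rdr2, 5.65% in ccr4a ccr4b and 8.48% in WT, that is, it was higher in both libraries that carry ddm1 and rdr2. Chr3:16310001-16320000 had 17.5%, 37.3%, 32.8% and 42.6% in that order, and its low value was in the quadruple mutant. At least 10% of the CAA and CTA calls were methylated in 250 windows in the quadruple mutant, 317 in ddm1 rdr2, 1487 in ccr4a ccr4b and 1525 in WT. These were 14.1%, 17.9%, 84.1% and 86.2% of the 1769 windows. The same shares over all nuclear windows are not given here, so no excess over the genome is stated.

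The 2 largest drops in ccr4a ccr4b against WT lay on the right of the chromosome 1 array. Chr1:17180001-17190000 had 26.4% in ccr4a ccr4b and 47.7% in WT, with 26.9% in the quadruple mutant and 34.8% in ddm1 rdr2. Chr1:17380001-17390000 had 20.99% in ccr4a ccr4b and 40.1% in WT, with 24.1% in the quadruple mutant and 34.9% in ddm1 rdr2. Both windows were thus also among those that held much CAA and CTA methylation in ddm1 rdr2. The largest gains were smaller. Chr2:7820001-7830000, from which the longest stretch above was taken, had 25.1% in ccr4a ccr4b and 18.1% in WT, and Chr1:18740001-18750000 had 25.4% and 18.8%. In the stretch itself the 3 CAA and CTA cytosines had 12.6% of 95 calls in ccr4a ccr4b and 15.3% of 176 calls in WT, so it did not share the direction of its window.

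Between the quadruple mutant and ddm1 rdr2 the largest drops lay in the right flank of chromosome 3. Chr3:15730001-15740000, which adjoins the array, had 7.13% in the quadruple mutant, 28.8% in ddm1 rdr2, 26.2% in ccr4a ccr4b and 34.1% in WT. Its other trinucleotides had 2.58%, 9.87%, 7.11% and 9.90%, so that in ddm1 rdr2 they stood at the WT level. In the stretch shown from this window the CAA and CTA cytosines had 2.67% of 75 calls in the quadruple mutant, 15.3% of 85 in ddm1 rdr2, 36.8% of 57 in ccr4a ccr4b and 35.7% of 98 in WT. Chr3:15950001-15960000 had 13.3%, 33.8%, 31.8% and 39.0% in that order.

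The largest gains in the quadruple mutant over ddm1 rdr2 were of different kinds. Chr2:2050001-2060000 had 17.6% in the quadruple mutant and 0.700% in ddm1 rdr2. In ccr4a ccr4b 0 of 1549 calls were methylated, which allows a share of up to 0.194%, and WT had 0.253%. Its CHG cytosines, whose methylation rests on a related chromomethylase, showed the same pattern, at 41.6% in the quadruple mutant, 3.10% in ddm1 rdr2 and 0.0522% in WT. CG methylation of this window was 59.0%, 54.7%, 57.7% and 66.2% in the quadruple mutant, ddm1 rdr2, ccr4a ccr4b and WT. Chr1:17860001-17870000 had 22.8% in the quadruple mutant, 9.83% in ddm1 rdr2, 28.3% in ccr4a ccr4b and 34.8% in WT.

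Across the 1769 windows, CAA and CTA went with CHG methylation in each library. The Pearson correlation was 0.822 in the quadruple mutant, 0.848 in ddm1 rdr2, 0.920 in ccr4a ccr4b and 0.944 in WT. The Spearman values with CHG were 0.862, 0.880, 0.871 and 0.901, so the order of ddm1 rdr2 and ccr4a ccr4b depended on the measure. With CG methylation the Pearson values were 0.0940, 0.156, 0.725 and 0.752. The Spearman values with CG were 0.12, 0.172, 0.544 and 0.480, so that the order of ccr4a ccr4b and WT depended on the measure. Windows share their library and neighbouring windows are not independent, so these values only describe the libraries.

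The ratio of CAA and CTA to the others had the same order of libraries for both pairs inside the array spans, in which 290846 CHH cytosines met the call minimum. Only 5.93% to 19.9% of the cytosines listed there did so, depending on the trinucleotide. It was 5.76 in the quadruple mutant, 4.69 in ddm1 rdr2, 5.44 in ccr4a ccr4b and 4.97 in WT, at CAA and CTA levels of 10.6%, 13.2%, 26.8% and 31.9%. In the arms, with 8714495 such cytosines, the ratio was 4.72, 4.35, 4.66 and 4.19 at CAA and CTA levels of 1.37%, 1.49%, 7.28% and 6.22%. With single cytosines weighted equally the arms had 3.26% in ccr4a ccr4b and 3.90% in WT, so that the order of these libraries turned. CAA and CTA in ddm1 rdr2 thus stood higher in the array spans than in the flanks. The intervals were 13.1% to 13.3% in the spans and 6.13% to 6.15% in the flanks. In WT the spans and flanks were closer, at 31.9% and 29.2%. With single cytosines weighted equally, spans and flanks had 17.95% and 7.02% in ddm1 rdr2. In WT they then had 26.5% and 27.8%, so the order in WT depended on the weighting.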

How the data were processed

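The authors deposited counts of methylated and unmethylated calls per cytosine, with strand, context and trinucleotide. Bismark 0.22.3 was used, per the submitters' processing notes. Trimming, Bowtie 2 and the build ColCEN appear only in the deposited files' names. The handling of multiply mapped reads and of PCR duplicates is not given in the sources used here. Covered cytosines had at least 3 calls in each library, and the origin of this floor is not given. Each library's calls within a group of cytosines were pooled, with single cytosines weighted equally as an alternative (Python 3.11.15, numpy 2.4.6, pandas 2.3.3, scipy 1.17.1). Windows were called at a difference of 5 points, a step tried on simulated data with planted falls of 10 points. The simulation held counting error only, so it cannot show how the step behaves under variation between libraries or PCR copies. The 3 windows highest in ddm1 rdr2 and the 2 largest drops and gains of each ccr4a ccr4b comparison were named. Sequences are the longest runs of at least 25 known bases, with at least 2 CAA or CTA and 1 other CHH cytosine of at least 10 calls, in the first window of each list, and the window with the largest drop in ccr4a ccr4b held none. Genes and transposons were not annotated here. Members and lists were chosen with earlier results of these data known.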

Additional observations from a re-analysis of the deposited data

Results flagged for a closer look

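The ccr4a ccr4b difference was compared between the ddm1 rdr2 and the WT background over the regions, distance bins, flanks and named windows. Opposite signs with both counting intervals apart from 0 were found for 3 overlapping groups of cytosines in the arms, where single trinucleotides were not screened, and for 2 named windows. Flank bins of 200 kb and other windows were not screened, and CAA and CTA were lower in 77 of 100 flank bins in the ddm1 rdr2 background and in 99 in the WT background. With 1 library per genotype, none of these differences was tested. In the arms, CAA and CTA differed by -0.112 points between the quadruple mutant and ddm1 rdr2 and by 1.06 points between ccr4a ccr4b and WT, so the ddm1 rdr2 background minus the WT background gave -1.17 points. The value between ccr4a ccr4b and WT became -0.641 points when each cytosine counted the same and -0.656 points when highly covered ones were left out, so its sign depended on the weighting. The other trinucleotides of the arms gave -0.126 points and all CHH cytosines of the arms -0.278 points for the same subtraction. Their values between ccr4a ccr4b and WT turned as well, from pooled calls 0.0760 and 0.22 points, and with equal weights -0.202 and -0.306 points. The window Chr1:18740001-18750000 differed by -1.28 points in the ddm1 rdr2 background and by 6.61 points in the WT background, a gap of -7.89 points at CAA and CTA. The window Chr1:17860001-17870000 differed by 13.0 points in the ddm1 rdr2 background and by -6.50 points in the WT background, a gap of 19.5 points. Both windows had been named for a large difference in 1 of the comparisons.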

How the results depend on the processing

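Values are given for the quadruple mutant, ddm1 rdr2, ccr4a ccr4b and WT in that order. The excess of CAA and CTA over the other trinucleotides was 4.19, 4.71, 20.3 and 23.2 points with a minimum of 1 call, 3.96, 4.48, 20.8 and 23.8 points with 10 calls, 4.69, 5.37, 18.4 and 22.2 points with equal weights for single cytosines, 5.03, 5.85, 16.8 and 21.2 points without cytosines over 3 times the median calls, 4.60, 5.20, 22.1 and 24.9 points without mitochondria-like windows, and 3.92, 4.55, 19.3 and 22.7 points within 1 Mb. Leaving out each chromosome gave 3.83 to 4.70, 4.40 to 5.35, 19.8 to 22.2 and 22.7 to 25.1 points. For ccr4a ccr4b minus WT the CAA and CTA difference was -4.29 (1 call), -4.41 (10 calls), -5.29 (equal weights), -5.82 (no highly covered cytosines) and -4.95 points (1 Mb), and -4.41 to -4.25 points by chromosome left out. For ddm1 rdr2 minus WT it was -22.9, -23.8, -20.8, -18.8 and -22.2 points under the same settings, -24.4 points without mitochondria-like windows and -24.5 to -22.5 points by chromosome left out. For the quadruple mutant minus ddm1 rdr2 it was -1.25 (equal weights), -1.62 (no highly covered cytosines), -1.19 (no mitochondria-like windows) and -1.27 points (1 Mb), and -1.29 to -0.720 points by chromosome left out, smallest without chromosome 5. No sign changed in these. The setting without highly covered cytosines used the median of all covered nuclear cytosines, and it left out many members.

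The nearest bin minus the outermost was 1.31, 2.07, -1.59 and 0.637 points with 1 call, 0.717, 1.41, -2.75 and -1.47 points with 10 calls, 2.72, 4.26, 4.73 and 6.53 points with equal weights, 4.08, 7.26, 5.92 and 7.71 points without highly covered cytosines, and 2.44, 3.55, 1.53 and 4.51 points without mitochondria-like windows. Against the bin from 800 kb to 1 Mb it was -0.640, -0.385, -1.94 and -1.48 points. The sign thus turned in 7 cases, and the cause was not tested. Of the windows lower by 5 points, 470 (ccr4a ccr4b against WT) and 840 (ddm1 rdr2 against WT) lay within 1 Mb, a narrower region. From the nearest outward, its distance bins held only 173, 175, 192, 180 and 180 windows. These counts are therefore not comparable with the counts over 2 Mb. Of all nuclear windows, 12.3% and 25.3% were lower by 5 points in these comparisons. At 10 points 61 windows (3.45%, against 1.11% of all nuclear windows) were lower in ccr4a ccr4b than in WT and 59 (3.34%, against 0.84%) in the quadruple mutant than in ddm1 rdr2. The ratio was higher with ccr4a ccr4b in both pairs, and lower in ddm1 rdr2 than in WT, in 14 of 14 settings. All of these pooled the distance bins of the flanks. From 1400 kb outward and in the arms the ratio was higher in ddm1 rdr2 than in WT. The settings for the ratio, among them subtraction of the chloroplast level and leaving out 4 flank bins, were chosen after seeing the data. No paired analysis was possible because each genotype has 1 library. The absence of replicates, unknown treatment of duplicates and the share of cytosines without enough calls limit all values.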
